A study of Mus musculus with 12 samples.

Results

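The fibrillar collagens were followed through osteoblastic differentiation of MC3T3-E1 cells, a clonal mouse preosteoblast line from calvaria. They were taken as every row of the array values whose annotated gene was Col1a1, Col1a2, Col3a1, Col5a1, Col5a2, Col5a3, Col11a1 or Col24a1. All 8 genes were found, each by 1 probe, among 12817 named genes and 17664 rows. Cultures received glycerol phosphate and ascorbic acid throughout, on all 4 days, so no group lacked the inducing agents. Cells were harvested at Day 2 in log phase growth (proliferating preosteoblasts), at Day 5 after growth arrest, at Day 10 while differentiating and at Day 28 as mature osteoblasts, with 3 arrays per day. Each array held Cy3-labelled cDNA of the cells beside Cy5-labelled cDNA of 1 commercial mouse reference RNA, and the dyes were not swapped. The labels do not say whether the 3 arrays of a day came from separate dishes, and the p-values rest on the scatter among arrays alone, part of which may be technical. All cells came from 1 line.

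Fibrillar collagens are the collagens that assemble into long, cross-striated fibrils. Their chains carry a long triple helix flanked by propeptides, which proteinases trim outside the cell. Type I collagen, built from the chains of Col1a1 and Col1a2, is the main protein of bone matrix, and type III (Col3a1) co-assembles with it in many soft tissues. Types V (Col5a1, Col5a2, Col5a3) and XI (Col11a1 and others) are minor collagens that sit inside fibrils and set where they start and how thick they grow, type V with type I and type XI with the type II collagen of cartilage. Type XXIV (Col24a1) is a late-discovered fibrillar collagen, found in developing bone where type I is made.

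Values below are log2 ratios of cells over the reference RNA, after centring each array on its median. A value of 0 means that the cells matched the reference, and a step of 1 is a doubling. A ratio shows how far a gene stood above the reference, not how abundant its mRNA was, so ratios were not ranked between genes as levels. A positive ratio was read as higher in the cells, which is likely and not stated in the labels. The basis was that, of 18 measured mesenchymal genes with no collagen among them, 12 lay above 0 (median 1.04), against 9 of 19 genes of other lineages (median -0.02). Osteoblast markers read the same way: 6 of 7 measured lay above 0, and their median was 0.65 at Day 2, 1.17 at Day 5, 1.91 at Day 10 and 2.51 at Day 28. Arrays of a day correlated with each other at mean values of 0.795 to 0.919, the lowest being replicate 3 of Day 10 and the next, at 0.838, replicate 2 of Day 5. Replicate 3 of Day 10 gave the lowest value of its day for 7 of the 8 collagens. Replicate 2 of Day 28 also did so for 7, and replicate 2 of Day 5 for 6. Results were also computed without replicate 3 of Day 10, the array with the lowest correlation.

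The sequences upstream of 3 genes that rose (Col24a1, Col11a1 and Col5a3) and of Col1a2, a type I gene whose change missed the threshold, are shown so that genes that rose can be set beside one that did not pass. RefSeq promoters (GRCm38.p6) were at hand for 6 of the 8 members, all but Col1a1 and Col5a2. Each line gives 220 bases before the annotated start and the first 30 transcribed bases, 5′ to 3′ on the gene's strand. Capitals mark matches, on either strand, to the box CCAAT, to the Sp1-type core GGGCGG (called a GC box below), to the TBP-type core TATAAA or to the palindromic cyclic AMP response element TGACGTCA, which was added after the sequences were seen.
Col24a1, chr3:145292252-145292501, plus strand: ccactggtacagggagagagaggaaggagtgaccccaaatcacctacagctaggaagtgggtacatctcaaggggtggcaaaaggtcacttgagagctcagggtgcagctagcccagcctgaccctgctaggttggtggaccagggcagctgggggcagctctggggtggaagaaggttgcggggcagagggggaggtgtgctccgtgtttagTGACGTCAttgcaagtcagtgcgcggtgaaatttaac
Col11a1, chr3:114030320-114030569, plus strand: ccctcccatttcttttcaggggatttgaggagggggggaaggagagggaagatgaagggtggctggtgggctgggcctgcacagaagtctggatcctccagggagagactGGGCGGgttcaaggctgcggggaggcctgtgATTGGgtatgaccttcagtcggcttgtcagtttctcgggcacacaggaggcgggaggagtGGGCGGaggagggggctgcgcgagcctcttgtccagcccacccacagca
Col5a3, chr9:20815038-20815287, minus strand: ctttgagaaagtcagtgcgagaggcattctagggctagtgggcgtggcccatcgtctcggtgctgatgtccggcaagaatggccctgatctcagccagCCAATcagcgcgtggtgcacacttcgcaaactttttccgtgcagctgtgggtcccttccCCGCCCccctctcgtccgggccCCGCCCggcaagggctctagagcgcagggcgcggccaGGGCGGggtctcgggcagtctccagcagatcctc
Col1a2, chr6:4505398-4505647, plus strand: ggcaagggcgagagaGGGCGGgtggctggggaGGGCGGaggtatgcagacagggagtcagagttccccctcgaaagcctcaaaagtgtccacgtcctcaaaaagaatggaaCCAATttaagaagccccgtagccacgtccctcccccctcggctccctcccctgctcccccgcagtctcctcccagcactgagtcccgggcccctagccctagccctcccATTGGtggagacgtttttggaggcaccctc

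In windows of 300 bases, from 250 before the start to 50 after it, Col24a1 held no CCAAT box, no GC box, no TATAAA and 1 TGACGTCA, beginning 7 bases before the start. That element was in 1.79% of all 32851 promoter windows. Col11a1 held 1 CCAAT box and 2 GC boxes, Col5a3 1 CCAAT box and 3 GC boxes, and Col1a2 2 of each. Col5a1 held 2 GC boxes alone, and Col3a1 held 1 TATAAA alone. A CCAAT box was in 37.4% of all windows, a GC box in 35.7% and TATAAA in 13.6%. No matches overlapped in the members. GC content was 56.3% for Col24a1, 62.3% for Col11a1, 63.3% for Col5a3, 61.0% for Col1a2, 75.0% for Col5a1 and 37.7% for Col3a1. These are matches of letters only, and the arrays did not measure binding.

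All 8 fibrillar collagens stood above the reference on all 12 arrays. Averaged over the arrays, the log2 ratio lay between 1.32 for Col5a3 (2.50-fold over the reference) and 4.25 for Col11a1 (19.0-fold), with Col1a2 at 3.03 (8.16-fold) and Col1a1 at 2.48 (5.59-fold) between them. Each mean ranked above at least 97.4% of all rows. By limma's moderated test with Benjamini-Hochberg adjustment over all 17504 rows, 8 of 8 passed an adjusted p of 0.05 as higher in cells. Of all rows, 30.8% did so. With the direction of the ratio turned, all 8 would be lower in cells, as the same 30.8% of rows would be. A difference from the reference also holds any dye effect of the probe, and since the samples are bulk RNA, more cells making a transcript and more transcript per cell cannot be told apart.

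Col24a1, Col11a1 and Col5a3 were higher at Day 28 than at Day 2 by 3.46 to 5.42-fold and passed the test, whereas Col1a1, Col1a2, Col3a1, Col5a1 and Col5a2 differed by 1.13 to 1.50-fold and did not. In the test for any change over the 4 days, 3 of 8 members passed (limma, adjusted p of 2.82e-05 for Col24a1, 1.76e-04 for Col5a3 and 0.00239 for Col11a1), beside 5.32% of all rows. At Day 28 against Day 2, 3 of 8 rose and none fell, where 3.68% of all rows rose and 2.01% fell. The median difference of the members was 0.58, and that of all rows -0.01. After quantile normalization of the arrays, 2 of 8 rose (Col24a1 and Col5a3), 4 of 8 rather than 8 of 8 differences were above 0, and the members' median was 0.01.

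**Figure D1:**
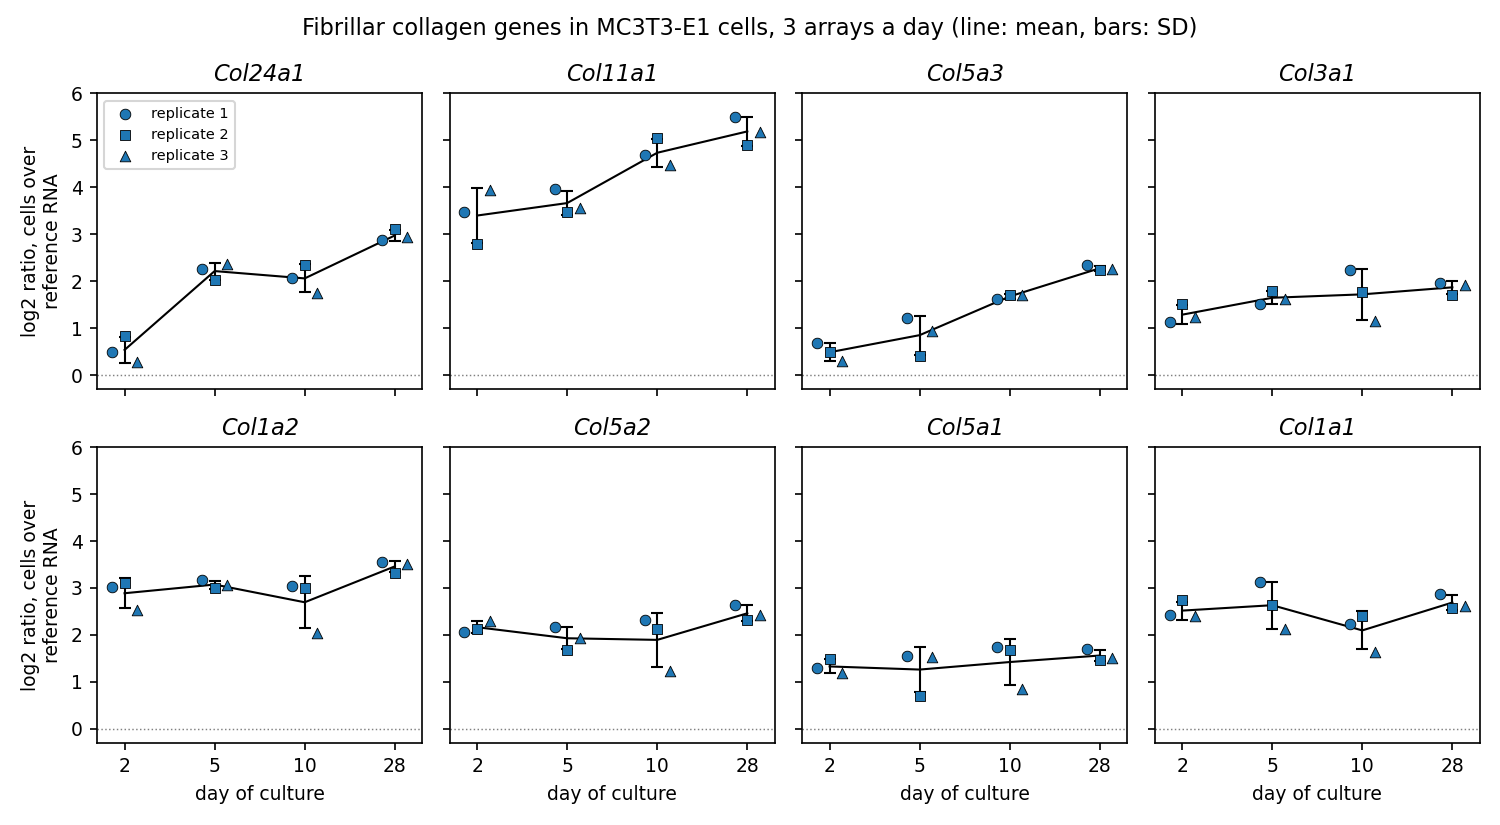
Log2 ratio of cells over reference RNA (y axis) for the 8 fibrillar collagen genes at Day 2, 5, 10 and 28 (x axis), 1 symbol per array, with the mean joined by a line and the SD as bars (n = 3). The Day 5 arrays of Col24a1 lie above its Day 2 arrays. The Day 10 and Day 28 arrays of Col11a1 and Col5a3 lie above those of Day 2 and Day 5. Replicate 3 of Day 10 is the lowest array of its day in 7 of the 8 panels, and so is replicate 2 of Day 28.

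Col24a1, the type XXIV chain, had the widest range of day means in the family and moved first. Its values at Day 2 were 0.48, 0.84 and 0.28. At Day 5 they were 2.25, 2.02 and 2.38. All Day 5 arrays lay above all Day 2 arrays, and this was the one member to pass at that step.
The mean at Day 5 was 2.22 ± 0.18, against 0.54 ± 0.29 at Day 2 (SD, n = 3 each), a difference of 1.68 (3.21-fold, SE 0.18, limma adjusted p = 0.00193). At this step 1 of 8 members rose, beside 0.2% of all rows. The call held in all 21 alternative computations (other normalizations, priors, sets of rows and sets of arrays), with differences of 1.55 to 1.83.
Col24a1 then held its level at Day 10, with 2.07, 2.35 and 1.76, overlapping the Day 5 values. The difference of Day 10 from Day 5 was -0.16 with a 95% interval of -0.55 to 0.24. At Day 28 the values were 2.87, 3.10 and 2.95, above every array of the 3 earlier days.
The Day 28 mean of 2.97 ± 0.12 exceeded the Day 10 mean of 2.06 ± 0.30 by 0.91 (1.89-fold, adjusted p = 0.0343 by limma). Here 1 of 8 members rose, beside 0.708% of all rows. This second step was less secure, since the call was lost in 10 of 21 alternatives, among them the one without replicate 3 of Day 10, which gave 0.76 (adjusted p = 0.0772), and quantile normalization, which gave 0.65 (adjusted p = 0.117). Leaving out replicate 1 of Day 5, replicate 1 of Day 10 or any of the 3 arrays of Day 28 also ended it, with adjusted p between 0.0521 and 0.158. Day 28 against Day 5 gave 0.76 (adjusted p = 0.0305) and passed in 15 of 21 alternatives. It was lost after quantile normalization (0.33, adjusted p = 0.321) and without replicate 1 or 2 of Day 5 or any 1 array of Day 28 (adjusted p of 0.0692 to 0.125).
From end to end, Day 28 exceeded Day 2 by 2.44 (5.42-fold, SE 0.18, 95% interval 2.05 to 2.83, limma adjusted p = 3.99e-06). This held in all 21 alternatives, between 2.04 and 2.59.

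Col11a1, the alpha 1 chain of type XI collagen, is best known from cartilage, and its product also joins type V chains in bone. It had values of 3.47, 2.79 and 3.94 at Day 2 and of 3.96, 3.48 and 3.56 at Day 5, which overlapped. Day 10 gave 4.69, 5.05 and 4.47, and Day 28 gave 5.51, 4.90 and 5.18. Every array of Day 10 and Day 28 lay above every array of Day 2 and Day 5, while Day 10 and Day 28 overlapped.
Day 10 averaged 4.74 ± 0.29, against 3.40 ± 0.58 at Day 2, a difference of 1.34 (2.53-fold, SE 0.27, limma adjusted p = 0.0176). At Day 10 against Day 2, 3 of 8 members rose (Col24a1, Col11a1 and Col5a3), beside 1.53% of all rows. For Col11a1 the call was lost in 5 of 21 alternatives. Without replicate 2 of Day 2, its lowest array, the difference was 1.03 (adjusted p = 0.0711), and without replicate 1 or 2 of Day 10 the adjusted p was 0.0518 and 0.0675.
Day 28, at 5.19 ± 0.31, exceeded Day 2 by 1.79 (3.46-fold, SE 0.27, adjusted p = 0.00111 by limma) and Day 5, at 3.67 ± 0.26, by 1.53 (2.88-fold, adjusted p = 0.00455). Against Day 5, 3 of 8 members rose at Day 28, the same 3 genes, beside 2.8% of all rows.
Both Day 28 calls for Col11a1 held with any 1 array left out and ended under quantile normalization, which gave 0.52 against Day 2 (adjusted p = 0.438) and 0.57 against Day 5 (adjusted p = 0.403). Quantile normalization gives all arrays the same spread of values. As deposited, the top of that spread differed by day: the 99.9th percentile of the ratios was 3.87 to 4.06 on the Day 2 arrays and 5.18 to 5.60 on the Day 28 arrays. The part of this spread in the Col11a1 result was not tested.

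Col5a3, the alpha 3 chain of type V collagen and its least widely expressed chain, had values of 0.67, 0.48 and 0.30 at Day 2, and of 1.22, 0.40 and 0.93 at Day 5. The Day 10 values were 1.61, 1.70 and 1.72, and the Day 28 values 2.34, 2.23 and 2.26. The arrays of Day 10 lay above all those of Day 2 and Day 5, and the arrays of Day 28 above all those of Day 10.
Day 28 averaged 2.28 ± 0.06, against 0.49 ± 0.19 at Day 2, a difference of 1.79 (3.46-fold, SE 0.18, 95% interval 1.40 to 2.18, limma adjusted p = 4.43e-05). The difference kept its call in all 21 alternatives and lay between 1.46 and 1.88. Day 10, at 1.68 ± 0.05, exceeded Day 2 by 1.19 (2.28-fold, adjusted p = 0.00365), also in all 21.
The single steps did not pass: Day 10 minus Day 5 was 0.83 (adjusted p = 0.0954) and Day 28 minus Day 10 was 0.60 (adjusted p = 0.193, and 0.0476 with array weights). Between Day 10 and Day 5, 0 of 8 members passed limma's adjusted threshold in either direction, beside 0.149% of all rows. An unadjusted limma p under 0.05 was reached by 3 of 8 (Col5a3 and Col11a1 above 0, Col1a1 below it), as by 1573 of 17504 rows. Col5a3 was the one member for which replicate 3 of Day 10 was not the lowest array of its day.

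**Figure D2:**
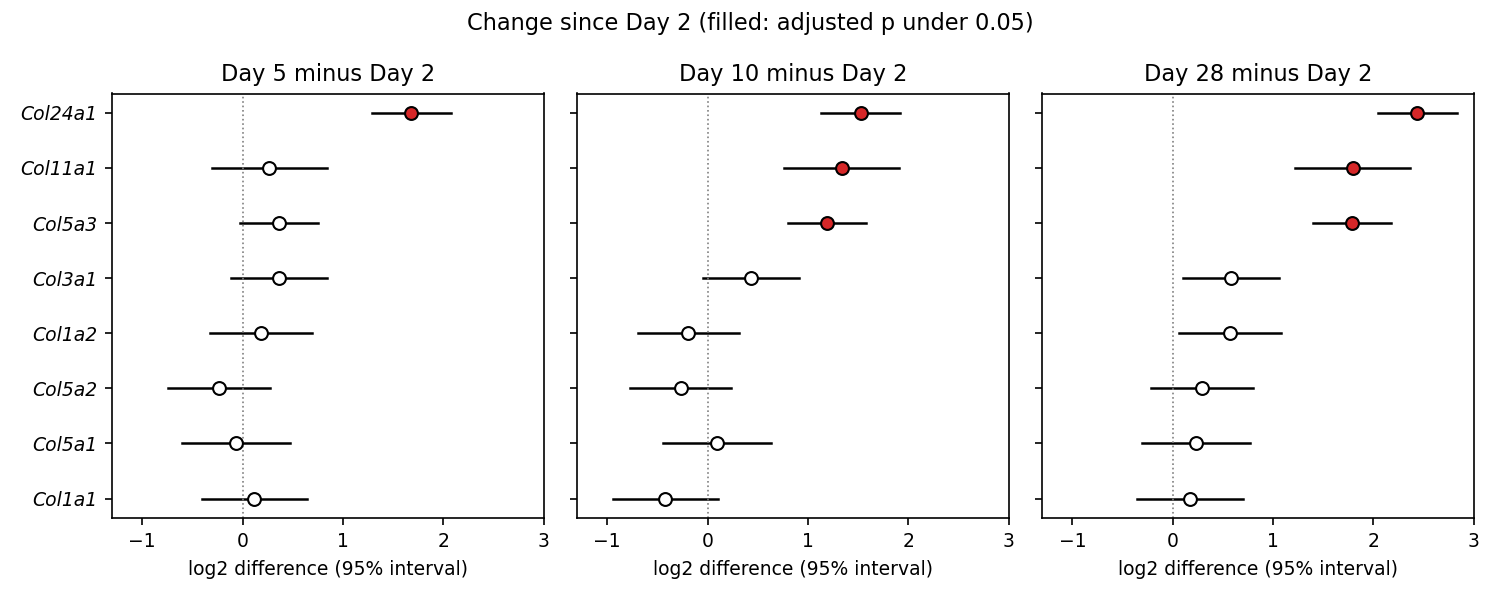
Log2 difference from Day 2 (x axis) at Day 5, Day 10 and Day 28 for the 8 genes (y axis), with 95% intervals from limma, filled where the adjusted p was under 0.05. Col24a1 is filled in every panel, Col11a1 and Col5a3 from Day 10 on, and the other 5 genes in none.

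Neither type I gene passed between any 2 days with all arrays fitted. Col1a1, which encodes the alpha 1 chain, had 2.42, 2.74 and 2.39 at Day 2, 3.12, 2.65 and 2.13 at Day 5, 2.24, 2.41 and 1.64 at Day 10, and 2.87, 2.58 and 2.62 at Day 28. The days overlapped except that Day 28 lay above Day 10.
Day 28 averaged 2.69 ± 0.16, against 2.52 ± 0.19 at Day 2, a difference of 0.17 (95% interval -0.35 to 0.70, limma adjusted p = 0.786). A change within that interval could not be told from none with 3 arrays a day. After quantile normalization the difference was -0.52 (adjusted p = 0.295).
Col1a2, which encodes the alpha 2 chain, had 3.02, 3.11 and 2.53 at Day 2, 3.17, 3.00 and 3.05 at Day 5, 3.04, 3.00 and 2.05 at Day 10, and 3.54, 3.32 and 3.51 at Day 28. All Day 28 arrays lay above all arrays of the other days. The Day 28 mean of 3.46 ± 0.12 exceeded the Day 2 mean of 2.89 ± 0.32 by 0.57 (1.49-fold, 95% interval 0.07 to 1.08, adjusted p = 0.207 by limma). Without replicate 3 of Day 10, which is in neither group but enters the shared spread, the same difference had an adjusted p of 0.0398, while after quantile normalization the difference was -0.40 (adjusted p = 0.428).

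Col3a1, the single chain of type III collagen, had 1.12, 1.51 and 1.23 at Day 2, 1.52, 1.80 and 1.62 at Day 5, 2.25, 1.76 and 1.15 at Day 10, and 1.97, 1.71 and 1.93 at Day 28. Day 5 and Day 28 lay above Day 2 without overlap, and Day 10 was spread over nearly the whole range. Day 28 averaged 1.87 ± 0.14, against 1.29 ± 0.20 at Day 2, a difference of 0.58 (1.50-fold, 95% interval 0.10 to 1.06, limma adjusted p = 0.171). Without replicate 3 of Day 10 the adjusted p was 0.0421, it was 0.0362 with only the 6 arrays of both days fitted, and Day 10 minus Day 2 became 0.72 (adjusted p = 0.0451) in place of 0.43 (adjusted p = 0.396). After quantile normalization, Day 28 minus Day 2 was 0.17 (adjusted p = 0.767).

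Neither of the 2 chains of the common form of type V collagen passed between any 2 days. Col5a1 had 1.30, 1.49 and 1.19 at Day 2, 1.55, 0.71 and 1.53 at Day 5, 1.74, 1.67 and 0.85 at Day 10, and 1.70, 1.48 and 1.50 at Day 28, with overlap between all days. Its Day 28 mean of 1.56 ± 0.12 stood 0.23 above the Day 2 mean of 1.33 ± 0.15 (95% interval -0.31 to 0.77, limma adjusted p = 0.702). Col5a2 had 2.06, 2.12 and 2.31 at Day 2, 2.17, 1.69 and 1.93 at Day 5, 2.31, 2.13 and 1.23 at Day 10, and 2.64, 2.31 and 2.43 at Day 28.
Its Day 28 mean of 2.46 ± 0.17 stood 0.30 above the Day 2 mean of 2.16 ± 0.13 (95% interval -0.21 to 0.80, limma adjusted p = 0.574). After quantile normalization these differences were -0.15 for Col5a1 and -0.33 for Col5a2. Col5a2 at Day 28 also stood 0.57 above Day 10 (95% interval 0.06 to 1.07, adjusted p = 0.404 by limma). It stood 0.53 above Day 5 (0.02 to 1.04, adjusted p = 0.261). Quantile normalization gave 0.37 and 0.15 for these. Col5a3, the third type V gene, had an interval at Day 28 against Day 2 (1.40 to 2.18) that lay above those of both. The difference between the courses of the genes was not itself tested.
For 6 of 8 members, all but Col1a1 and Col5a1, the 3 arrays of Day 28 lay above the 3 of Day 2, as in 14.2% of all rows. For 4 of 8 they lay above those of Day 10, as in 9.74% of all rows.
Leaving out replicate 3 of Day 10 raised the count of members called at Day 28 against Day 2 to 5 of 8, adding Col1a2 and Col3a1, while calls over all rows came to 1431, against 996 with it. At Day 28 against Day 10 it lowered the members' count to 0 of 8, while calls over all rows came to 198, against 147 with it.

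**Figure D3:**
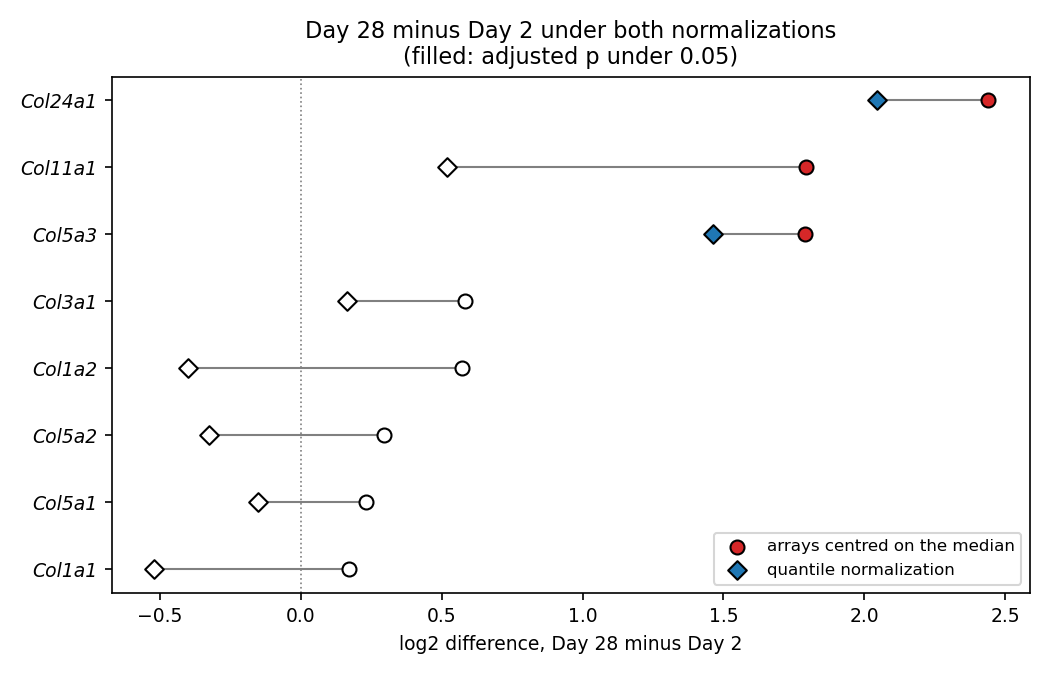
Log2 difference of Day 28 minus Day 2 (x axis) for each gene (y axis), with arrays centred on the median (circles) and after quantile normalization (diamonds), filled where the adjusted p was under 0.05. Quantile normalization lowers every difference, by the largest amount for Col11a1 (0.52 in place of 1.79), and puts Col1a1, Col1a2, Col5a1 and Col5a2 below 0.

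Likeness of course was measured as the root mean square difference over the 12 arrays, each probe centred on its own mean, as a description. Within the family the closest pairs were Col5a1 with Col5a2 (0.232), Col1a2 with Col5a2 (0.255) and Col1a1 with Col1a2 (0.272). The first and last of these pairs are partner chains, of type V and of type I, and the middle one joins chains of different types. The measure was not scaled to a gene's own spread, so genes that changed little lie close together by it. Day means of Col1a1, Col1a2, Col5a1 and Col5a2 ranged over 0.30 to 0.76, against 1.79 to 2.44 for Col5a3, Col11a1 and Col24a1. Col5a3 and Col11a1 differed by 0.345, and Col1a1 and Col24a1, the farthest pair, by 0.913. All pairs share the same 12 arrays, including replicate 3 of Day 10. Col3a1 and Col5a2 are neighbours on chromosome 1 with 0 protein-coding genes between them in the GRCm38.p6 annotation, and differed by 0.339.
Among all genes, those closest to Col5a3 were Zbtb7c, a zinc finger gene (0.184), Cp, the copper carrier ceruloplasmin (0.188), and Sod3, extracellular superoxide dismutase (0.224). Closest to Col11a1 were the kinase gene Stk17b (0.339), Col5a3 (0.345) and Sod3 (0.346). Closest to Col24a1 were Cebpa, a transcription factor of fat and myeloid cells (0.335), the ion channel gene P2rx5 (0.376) and Gas6, a ligand of TAM receptor kinases (0.389).

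Of the fibrillar collagens outside the list, Col2a1, the type II gene of cartilage, had means of 1.25, 0.67, 0.84 and 0.43 at Day 2, 5, 10 and 28. Day 28 minus Day 2 was -0.83 (limma adjusted p = 0.0979, 0.0225 without replicate 3 of Day 10 and 0.0377 after quantile normalization). Col27a1, of type XXVII, had 1.81, 2.61, 2.67 and 2.44 over the same days (Day 28 minus Day 2 0.62, adjusted p = 0.389). Col11a2, the alpha 2 chain of type XI, stayed below the reference on all 12 arrays, with day means of -0.65, -0.31, -0.37 and -0.37.
Chondrocyte markers were set beside Col11a1. Of 8 measured, 6 lay above 0 on average, with a median of 0.15 at Day 2, 0.26 at Day 5, 0.09 at Day 10 and 0.38 at Day 28. Their averages over the 12 arrays ran between -0.67 for Comp, a cartilage matrix protein gene, and 2.42 for Sox9, the transcription factor of cartilage, both named after their values were seen. At Day 28 against Day 2, 1 of 8 rose, beside 3.68% of all rows. This was Cnmd, which encodes the cartilage protein chondromodulin, with a rise of 1.63 (adjusted p = 5.60e-04 by limma). Whether any chondrocyte-like cells were present, or had a part in the Col11a1 result, was not tested. Of the osteoblast markers, 3 of 7 rose over the same interval, beside the same 3.68% of all rows. Dmp1 rose by 2.52, Pth1r by 1.84 and Sparc by 1.30.

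Of 20 measured genes that fold, trim and cross-link procollagen, 4 rose and 1 fell at Day 28 against Day 2 (3 and 1 after quantile normalization), with a median of 0.26. That is 25% called, where 5.69% of all rows were called in either direction. The risers were P3h3, a collagen prolyl 3-hydroxylase family gene (1.29, adjusted p = 8.79e-05 by limma, and 0.73 after quantile normalization), Plod1, a collagen lysyl hydroxylase (0.99), Ppib, the prolyl isomerase cyclophilin B (0.69), and Pcolce, the enhancer of the proteinase that removes the C-propeptide (0.64). Pcolce did not pass after quantile normalization (0.27, adjusted p = 0.410). A second Plod1 probe gave 0.38 and did not pass (adjusted p = 0.183). Pcolce2, the second enhancer gene, fell by 2.28 (adjusted p = 0.00598), with a mean of -1.39 at Day 28, against 0.89 at Day 2.

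Among 19 collagens and proteins that coat or bind fibrils, 4 rose and 0 fell at Day 28 against Day 2, beside 3.68% and 2.01% of all rows. Their median was 0.31, and 2 rose and 2 fell after quantile normalization. Lum (lumican) and Fmod (fibromodulin), small leucine-rich proteoglycans that bind growing fibrils, rose by 4.12 (SE 0.72, limma adjusted p = 0.00389) and 2.77 (SE 0.51, adjusted p = 0.00524). After quantile normalization these were 2.80 (adjusted p = 0.0415) and 1.79 (adjusted p = 0.0498). Lum had means of 2.97 at Day 2, 6.24 at Day 5, 6.44 at Day 10 and 7.09 at Day 28. Sparc (osteonectin) rose by 1.30 and Col16a1, of a fibril-associated collagen, by 0.89, and neither passed after quantile normalization (0.74 and 0.59, adjusted p of 0.0798 and 0.0600). At Day 28 against Day 10, 0 of the 19 rose and 1 fell, beside 0.708% and 0.131% of all rows. This was Dcn (decorin), with a difference of -1.83 (limma adjusted p = 0.00106). It had risen by 1.17 at Day 10 against Day 2 (limma adjusted p = 0.0113).

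The genes of collagen uptake and breakdown included the largest rise of the 4 pathway lists, that of Mmp13. Of 16 measured, 7 rose and 0 fell at Day 28 against Day 2, beside 3.68% and 2.01% of all rows. Their median was 0.49, and 4 rose after quantile normalization. Mmp13, the main collagenase of mouse bone, had 1.22, 0.41 and 0.80 at Day 2, 2.99, 2.55 and 3.43 at Day 5, 5.73, 6.22 and 4.60 at Day 10, and 8.00, 8.09 and 7.89 at Day 28. No neighbouring days overlapped, and the rise came to 7.18 (SE 0.34, limma adjusted p = 9.34e-08), and 5.95 after quantile normalization. Ctsk, the collagen-cutting cathepsin K best known from osteoclasts, rose by 2.63 (1.52 after quantile normalization). Mrc2, the collagen uptake receptor Endo180, rose by 1.72, and Mmp9, a gelatinase, by 1.06. The other 3 rises, of Mmp2, Mmp14 and Timp1, were between 0.64 and 0.83, and none of these 3 passed after quantile normalization (0.15, 0.18 and 0.52). Timp1 was in this list as an inhibitor of the proteinases, not as a gene of breakdown. Beside Ctsk, the other 4 measured macrophage and osteoclast markers lay below the reference on average, Ptprc as low as -3.95, and 0 of these 4 rose.

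Of 24 regulators of collagen expression, 4 rose and 1 fell (3 and 2 after quantile normalization), with a median of -0.08. At Day 28 against Day 2, 3.68% of all rows rose and 2.01% fell. Tgfb1, the growth factor that induces collagen in many cells, rose by 1.79 (limma adjusted p = 9.22e-04), with means of -0.93, -0.90, -0.56 and 0.86 over the 4 days. Larp6, whose product binds type I collagen mRNA, rose by 1.57, Tgfb2 by 1.02 and Creb3l1, an activator of Col1a1 in mouse osteoblasts, by 0.63. Atf4, a transcription factor of osteoblast amino acid supply, fell by 0.79 (adjusted p = 0.0398). After quantile normalization Creb3l1 did not pass (0.33, adjusted p = 0.284), nor did Atf4 (adjusted p = 0.0513), so the 2 that fell there were other genes.

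**Figure D4:**
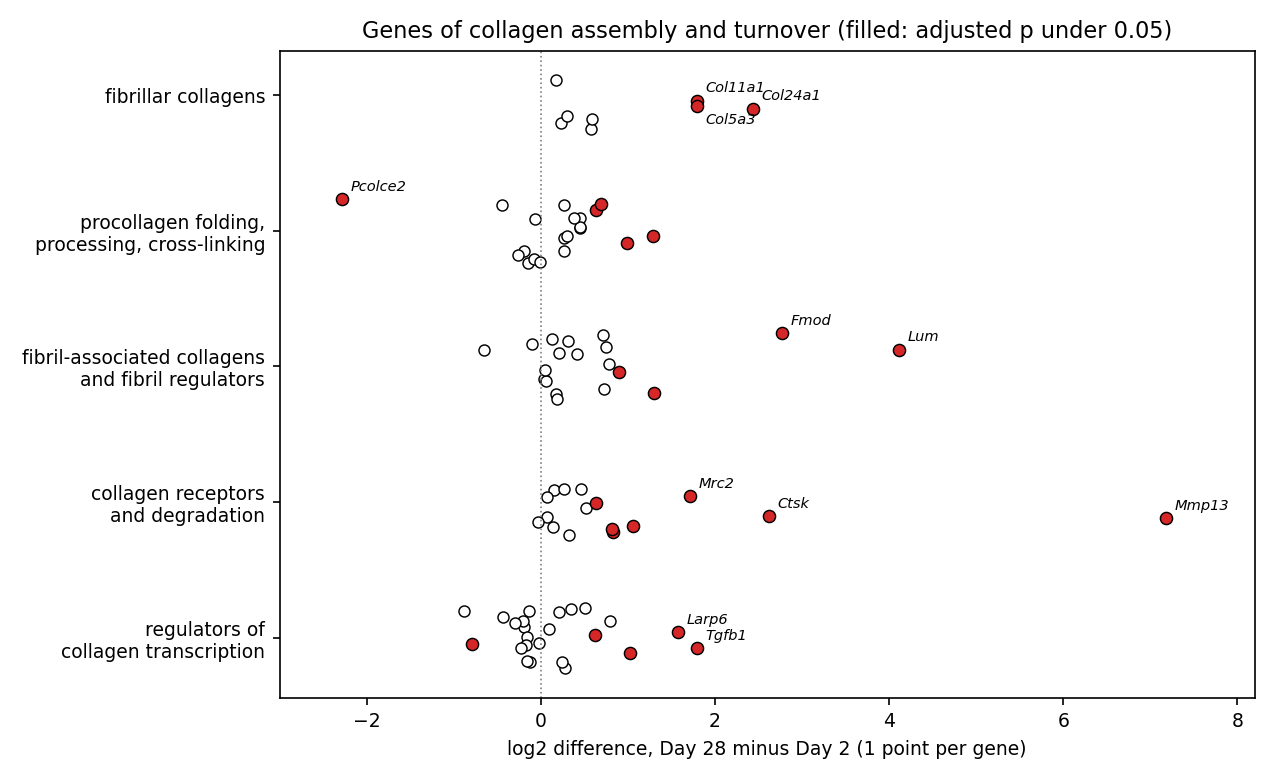
Log2 difference of Day 28 minus Day 2 (x axis), 1 point per gene, for the fibrillar collagens and 4 lists of genes that process, bind, break down or regulate collagen (y axis), filled where the limma adjusted p was under 0.05. Mmp13 lies farthest right at 7.18 and Pcolce2 farthest left at -2.28.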

How the data were processed

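RNA of MC3T3-E1 cells was compared with a reference RNA on 12 two-colour arrays, 3 for each of 4 days. The deposited table gives 1 log2 ratio per probe and array, made by the authors with R 2.13.0, per the submitters' processing notes. The log base, the centring and the direction are not stated; base 2 was taken from the values, whose column medians were within 0.0132 of 0. Background correction and normalization within arrays were not stated in the sources used, and no spot intensities were used, so how far a spot stood above background is unknown. The number of arrays limits the precision.

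Each array was centred on its median, and 10 genes printed 17 times were averaged, which left 17504 rows. Of the 17664 rows, 14010 had 1 annotated gene, 13 several and 3641 none. For 13908 of the rows with 1 gene, the gene identifier was matched and the symbol taken through it. limma 3.58.1 in R 4.3.3 fitted 1 mean per day over all arrays (8 residual degrees of freedom) with Benjamini-Hochberg adjustment over all rows and a threshold of 0.05, after a test on simulated data. For a gene with several probes in a list, the lowest-numbered one was used. Day 10 against Day 2 and Day 28 against Day 5 were added after seeing the data. All members were named, and from each list the genes past the threshold, at most 4 in each direction by size. The members and lists were chosen with earlier results of these data known. Alternatives were quantile normalization, no centring, array weights, a robust prior, other row sets, fewer arrays and a replicate block. Same-numbered arrays of different days deviated together by correlations of -0.27 to 0.20, so the numbers were not taken as pairs. No 2 arrays held identical values.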

Additional observations from a re-analysis of the deposited data

How the results depend on the processing

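Over the 6 comparisons between days, the comparison with the reference and the test for any change, no called value of the 8 collagens changed sign under an alternative. All 8 stayed called above the reference in every one. Quantile normalization ended the calls of Col11a1 between days (0.56 and adjusted p = 0.457 at Day 10 against Day 2) and for any change (adjusted p = 0.458), and those of Col24a1 at Day 28 against Day 10 and Day 5. It also put 4 uncalled differences of Day 28 from Day 2 below 0. The cause was not tested. With the replicate block, Col24a1 at Day 28 against Day 10 had an adjusted p of 0.0506, with the same difference of 0.91. Counts of all rows moved more. With the replicate block they were 30 for Day 5 against Day 2 (59 without it) and 13 for Day 10 against Day 5 (26), and same-numbered arrays exceeded a correlation of 0.1 in 2 of 18 pairs. Without both arrays that stood apart, replicate 2 of Day 5 and replicate 3 of Day 10, the counts were 231 for Day 5 against Day 2, 52 for Day 10 against Day 5, 261 for Day 28 against Day 10 (147), 1704 for Day 28 against Day 2 (996) and 1764 for any change (931). With array weights, the counts were 420 for Day 28 against Day 10, 1702 for Day 28 against Day 2 and 1655 for any change. With only the 6 arrays compared, they were 37 for Day 5 against Day 2, 0 for Day 10 against Day 5 (1101 at an unadjusted p under 0.05, limma), 65 for Day 28 against Day 10 and 1549 for Day 28 against Day 2. Averaging the probes of a gene gave 17 for Day 10 against Day 5, which tests fewer rows. Quantile normalization gave 90 for Day 28 against Day 10. It moved the split of higher and lower calls there to 67 and 23, against 124 and 23, and at Day 5 against Day 2 to 38 and 40, against 35 and 24. Leaving out 1 array at a time gave 20 to 160 for Day 5 against Day 2, 1 to 83 for Day 10 against Day 5, 65 to 198 for Day 28 against Day 10, 529 to 1431 for Day 28 against Day 2 and 515 to 1429 for any change.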
